A study of Mus musculus with 2 samples.

Results

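Immunoglobulin constant region genes were followed through single-cell RNA-seq (scRNA-seq) libraries of hepatic non-parenchymal cells (NPCs). The 10 members were fixed by name and comprised 7 heavy chain genes (Ighm, Ighd, Igha, Ighg1, Ighg2b, Ighg2c and Ighg3) and 3 light chain genes (Igkc, Iglc2 and Iglc3). All 10 were listed in both libraries, among 19219 genes listed in both. NPCs came from 2 male C57BL/6 mice, 8 weeks old. The normal mouse received olive oil and the fibrosis mouse received CCl4, a hepatotoxin, at 15% in olive oil and 0.6 µl per g of body weight. Both were injected intraperitoneally 2 times a week for 6 weeks, and livers were taken 48 h after the last injection. Each library held the cells of 1 mouse. With 1 library per condition there was no replicate check of any difference, and intervals given below are 95% exact intervals that cover counting error only.

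An antibody joins heavy and light chains, and the constant region gene of the heavy chain sets its class. Naive B cells splice Ighm (IgM) and Ighd (IgD) from a common primary transcript, class switching joins the variable region to Igha (IgA) or an Ighg gene (IgG), and plasma cells, the terminal stage, fill much of their mRNA with these transcripts. The liver receives plasma cells and IgA from the gut through the portal vein, and Pigr, the polymeric immunoglobulin receptor, carries IgA into bile.

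The heavy chain genes lie on chromosome 12 on the minus strand of GRCm38, the assembly also called mm10. In the order of transcription these were Ighm at chr12:113418558-113422730, Ighd at chr12:113406604-113416324, Ighg3 at chr12:113356224-113361232, Ighg1 at chr12:113325240-113330523, Ighg2b at chr12:113302965-113307933, Ighg2c at chr12:113285325-113288932 and Igha at chr12:113254830-113260236. Igkc, the kappa gene, lies on the plus strand at chr6:70726435-70726966. The lambda genes Iglc2 at chr16:19198396-19200351 and Iglc3 at chr16:19065230-19065681 lie on the minus strand. Iglc1, another lambda gene, was no member and is given beside them. The annotation places Gm30211 over Igkc on the same strand, so reads in the shared part could have been split or dropped by the counting.

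The ends of the coding sequence are shown for the lambda genes, because Iglc2 and Iglc3 are near-identical there. Each line gives the last 100 coding bases with the stop codon, 5′ to 3′ on the gene's strand, from GENCODE vM21 transcripts. Capitals mark bases that differ from Iglc2, or in Iglc2 itself the base that differs from Iglc3.
Iglc2, chr16:19198536-19198635: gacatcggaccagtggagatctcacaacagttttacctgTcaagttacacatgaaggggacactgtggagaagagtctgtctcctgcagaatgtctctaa
Iglc3, chr16:19065365-19065464: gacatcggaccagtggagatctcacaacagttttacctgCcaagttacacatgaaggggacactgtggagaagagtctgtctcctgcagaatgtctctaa
Iglc1, chr16:19061752-19061851: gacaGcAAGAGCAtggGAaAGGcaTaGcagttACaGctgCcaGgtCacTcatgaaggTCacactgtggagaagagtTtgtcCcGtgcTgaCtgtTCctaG
Iglc3 differed from Iglc2 at 1 of these bases and Iglc1 at 32. The longest stretch shared by Iglc2 and Iglc3 transcripts was 79 bases, against 19 for Iglc1 and Iglc2. A read wholly inside such a stretch cannot be assigned to 1 gene, so the split of UMIs between Iglc2 and Iglc3 is uncertain. Among the IgG genes the longest shared stretch was 78 bases, between Ighg2b and Ighg2c.

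The last 60 coding bases of the secreted forms of IgM, IgA and IgG1 are shown because IgM and IgA are joined into polymers by the J chain, encoded by Jchain, whose counts are given beside the heavy chains below. Capitals mark the cysteine codon next to the last amino acid, which binds the J chain in IgM and IgA.
Ighm, chr12:113420867-113420926: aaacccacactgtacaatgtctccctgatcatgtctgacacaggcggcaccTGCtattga
Igha, chr12:113258768-113258827: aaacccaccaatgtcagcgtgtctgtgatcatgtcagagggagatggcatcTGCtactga
Ighg1, chr12:113328976-113329035: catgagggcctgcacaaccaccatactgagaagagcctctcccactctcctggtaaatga
The IgG1 end had no cysteine codon at that position.

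After filtering, 7471 normal and 6132 fibrosis cells were kept, with medians of 4226 and 5776 unique molecular identifiers (UMIs), and cells were clustered in each library without any immunoglobulin gene. Classes named from fixed markers are called X-like. The libraries shared 15 cell barcodes, and none of them was a cell with 500 or more UMIs of the members. Levels are UMIs of a gene per 10000 UMIs of the pooled cells of a class. Counts are 3′ tags and were not scaled by gene length.

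B-cell-like cells, 584 in normal and 421 in fibrosis, held IgM, IgD and kappa transcripts in most cells. In each library 8 of the 10 leading genes of the cluster were B cell markers, Ms4a1, Cd79a, Pax5 and Fcer2a among them. Ighm was at 48.5 (47.5-49.6) in normal and 41.1 (39.9-42.4) in fibrosis, a ratio of fibrosis over normal of 0.847 (0.815-0.88). The median cell had 12 Ighm UMIs in normal and 9 in fibrosis, and with each cell thinned to 1000 UMIs, 95.7% of normal and 94% of fibrosis cells had an Ighm UMI (98.8% and 97.4% without thinning). In other cells with fewer than 20 member UMIs, taken as the background of free RNA, the thinned shares for Ighm were 10.2% and 8.24%. Ighd was at 12.7 (12.1-13.2) and 11.4 (10.7-12.1), a ratio of 0.898 (0.834-0.966). There were 0.261 (0.249-0.274) Ighd UMIs per Ighm UMI in normal and 0.277 in fibrosis.

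**Figure D1:**
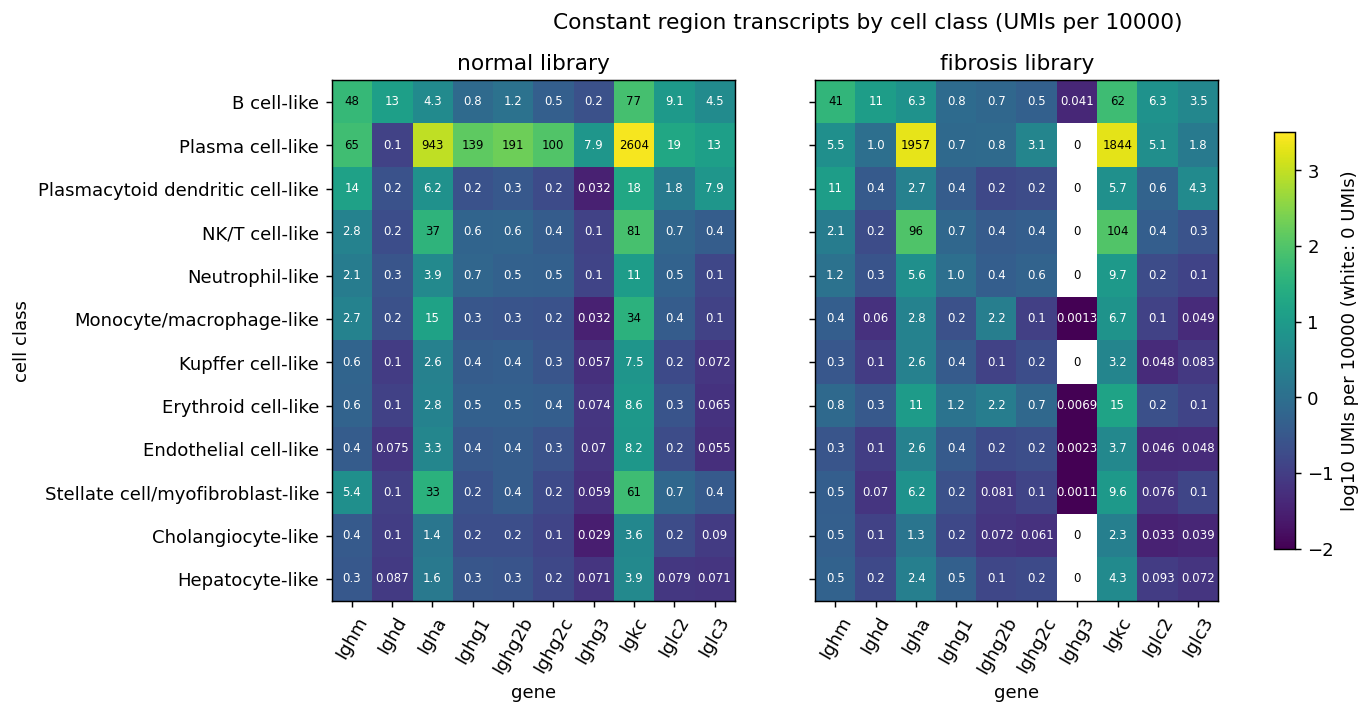
Levels of the 10 constant region genes (columns) in 12 cell classes (rows), as UMIs per 10000 UMIs of the class; the colour is log10 of the printed value and white marks 0 UMIs. Igkc and Igha lead the plasma-cell-like row in both libraries, IgD is highest in the B-cell-like row, and raised Igkc and Igha in the NK/T-cell-like row rest on 7 normal and 4 fibrosis cells described in the text.

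Kappa led the light chains of B-cell-like cells. Igkc was at 76.7 (75.3-78) in normal and 62.3 (60.7-63.9) in fibrosis, a ratio of 0.813 (0.788-0.838). Iglc2 was at 9.08 (8.63-9.55) and 6.29 (5.81-6.81), a ratio of 0.693 (0.63-0.761), and Iglc3 was at 4.49 (4.17-4.82) and 3.45 (3.09-3.84), a ratio of 0.769 (0.674-0.876). Ighm, Ighd and these 3 light chain genes were thus each lower in fibrosis beyond counting error, between 1 mouse and 1 mouse. Among Igkc, Iglc1, Iglc2 and Iglc3, Iglc1 was lowest relative to normal, at 3.63 (3.35-3.93) and 1.75 (1.49-2.03), a ratio of 0.481 (0.404-0.571).

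The switched classes were scarce in B-cell-like cells. Igha was at 4.27 (3.97-4.6) in normal and 6.29 (5.81-6.81) in fibrosis, a ratio of 1.47 (1.32-1.64). Per droplet this did not exceed free RNA. The mean B-cell-like cell had 1.22 Igha UMIs in normal and 1.46 in fibrosis, against 1.39 and 2.11 in other cells with fewer than 20 member UMIs. Per 10000 UMIs it did, by 1.66 (1.54-1.79) and 2.56 (2.36-2.78) times, but B-cell-like cells were shallower, with median depths of 2758 and 2196 UMIs against 4349 and 6544. The direction of the difference from free RNA thus turned with the scaling, and the part of free RNA in the Igha ratio between libraries was not tested. Only 1 fibrosis cell and no normal cell had IgA as its leading heavy chain, which for 0 of 140 called normal cells allows a share of up to 2.14%. A leading chain here is a gene with at least 80% of at least 10 heavy chain UMIs. Of 501 normal and 305 fibrosis B-cell-like cells with at least 10 heavy chain UMIs, most were not called, and in 442 and 249 of them Ighm and Ighd together made at least 80%, so the called cells are those low in Ighd. By that rule 137 of 140 called normal cells and 73 of 74 called fibrosis cells were Ighm, 2 normal cells were Ighg2b and 1 was Ighg1. Ighg2b was at 1.21 (1.05-1.39) and 0.695 (0.539-0.881), a ratio of 0.575 (0.43-0.76), and 3 cells held 27.4% of its normal UMIs. Its mean per droplet was 0.344 and 0.162, against 0.231 and 0.129 in free RNA. The ratios of Ighg1, 1.05 (0.781-1.39), and Ighg2c, 1.05 (0.714-1.52), had intervals that include 1. In fibrosis both lay under free RNA per droplet, Ighg1 at 0.19 against 0.312 and Ighg2c at 0.114 against 0.163, but per 10000 UMIs both exceeded it, by 2.25 (1.78-2.82) and 2.58 (1.88-3.45) times. Ighg3, of which 38 UMIs were counted in normal and 4 in fibrosis B-cell-like cells, had a ratio of 0.179 (0.0464-0.497), and in free RNA its ratio was 0.0206 (0.00821-0.0431).

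Among the members, 7 reached a level of 1 UMI per 10000 in one library or the other, and 0 of them passed a ratio of 2 in either direction. With immunoglobulin genes in the clustering, the Igkc ratio was 0.302, past 1/2. Across all 2445 genes at that level, 11.1% had a ratio of 2 or more and 9.57% a ratio of 1/2 or less, with a median of 1.2. The median over the 7 members was 0.813. With 1 library per condition these are counts of ratios, not of tests.

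Of 12 partner and signalling genes of the B cell receptor that reached that level, 0 passed a ratio of 2 in either direction, and their median was 0.961. Cd79a and Cd79b, the signalling chains of the receptor, were at ratios of 0.705 (0.66-0.752) and 0.693 (0.64-0.749). Of 12 such genes of the plasma cell programme and antibody secretion, 3 were past 2 (Hsp90b1 2.92, Pou2af1 2.06 and Hspa5 2.04) and 2 past 1/2 (Mzb1 0.402 and Ssr4 0.435). Hsp90b1 and Hspa5 were past 2 in the other cells too, at 2.35 (2.32-2.38) and 2.25 (2.22-2.28). Hsp90b1 and Hspa5 encode chaperones of the endoplasmic reticulum and Mzb1 a chaperone of B-lineage cells. Of 10 immunoglobulin receptor and transporter genes at that level, Cd5l (6.6), Lgals3 (4.38) and Fcer1g (2.07) were past 2 and Pigr (0.19) past 1/2. These 4 genes were highest in other classes of these libraries. Cd5l was at 40.6 in normal and 71 in fibrosis Kupffer-cell-like cells, and Lgals3 at 36.7 in fibrosis monocyte/macrophage-like cells. Fcer1g was at 16.7 in normal Kupffer-cell-like and 21.3 in fibrosis monocyte/macrophage-like cells, and Pigr at 13.7 in normal hepatocyte-like cells. The part of free RNA in these ratios was not tested. Of 5 survival factor and receptor genes, Cxcl12 was past 2 (2.17), and in the other cells it was at 2.86 (2.77-2.94). Of 6 B cell subset genes, Ptpn22 (2.9) and Zeb2 (2.04) were. None of 9 class switching and germinal centre genes reached that level, and of 7 surrogate light chain and recombination genes 1 did, with a ratio of 0.771.

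A B cell normally expresses 1 kind of light chain, kappa or lambda. Lambda, counted as Iglc1, Iglc2 and Iglc3, made 18.3% (17.7-18.9) of light chain UMIs in normal B-cell-like cells and 15.6% (14.7-16.4) in fibrosis. Among 541 normal and 345 fibrosis B-cell-like cells with at least 10 light chain UMIs, the median lambda share was 14.6% and 11.1%. Lambda was at 50% or more in 23 and 14 of these cells. At a stricter rule, 90% of at least 10 UMIs, 183 normal and 160 fibrosis cells were kappa, 3 and 2 were lambda, and 355 and 183 were mixed. Cells with at least 10 Igkc UMIs commonly held lambda UMIs too. Iglc2 was present in 82.3% of them in normal and 64.5% in fibrosis, and Iglc3 in 64.8% and 58.4%, without thinning. In free RNA these shares were lower. Iglc2 was found in 10% of normal and 4.27% of fibrosis other cells with fewer than 20 member UMIs, and Iglc3 in 3.28% and 4.7%. With plasmacytoid-dendritic-cell-like cells left out of them, Iglc3 was found in 2.79% and 3.77%, and its UMIs went from 300 to 183 in normal and from 334 to 208 in fibrosis. Those other cells were deeper than B-cell-like cells in both libraries, by the medians given above. Whether doublets or misassigned reads bear on the mixed cells was not tested.

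Member UMIs of single cells fell into a low and a high group. In normal, 119 cells had 500 or more member UMIs and together held 89.3% of all member UMIs, whereas 5 cells had from 200 to under 500. In fibrosis these were 20 cells with 73% and 2 cells. The limits of 20, 200 and 500 UMIs were chosen after the values were seen. As a share of all cells, cells with 500 or more made 1.59% (1.32-1.9) of normal and 0.326% (0.199-0.503) of fibrosis. Cells removed for a mitochondrial share of 10% or more added 2 such cells in each library. The normal pair was led by Ighg2b (2682 UMIs) and Igha (403), and the fibrosis pair by Igha (3093) and Ighg2c (2276).

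Plasma-cell-like cells, named from Mzb1, Derl3, Tnfrsf17, Eaf2 and Txndc5 and other markers, numbered 92 in normal and 52 in fibrosis. In normal, 86 of the 92 had 500 or more member UMIs, and the median cell had 4824, which was 42.4% of its UMIs. In fibrosis, 10 of the 52 had 500 or more, and the median cell had 9 member UMIs and 1383 UMIs in all. The other 42 fibrosis cells had 1 to 67 member UMIs each, which goes against the name, and the pooled fibrosis levels of Igha and Igkc rest on 10 cells. Plasma-marker cells, defined after the values were seen by a UMI of at least 2 of Mzb1, Derl3 and Tnfrsf17 in any cluster, numbered 125 in normal and 20 in fibrosis, with medians of 4422 and 8961 member UMIs.

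In the pooled plasma-cell-like cells, Igkc and Igha were the leading members. Igkc was at 2604 (2595-2613) in normal and 1844 (1826-1861) in fibrosis, and Igha at 943 (938-949) and 1957 (1939-1976). The IgG genes and Ighm were lower in the fibrosis cells of this class. Ighg2b was at 191 (189-194) in normal and 0.784 (0.465-1.24) in fibrosis, Ighg1 at 139 (137-141) and 0.741 (0.432-1.19), Ighg2c at 99.9 (98.1-102) and 3.14 (2.45-3.95), and Ighm at 64.6 (63.2-66.1) and 5.49 (4.57-6.54). Ighg3 was at 7.88 (7.39-8.39) in normal, 957 of its 960 UMIs in 1 cell, and had 0 UMIs in fibrosis, which allows up to 0.131. Ighd was at 0.123 (0.0689-0.203) and 1 (0.635-1.5), from 15 and 23 UMIs. In plasma-marker cells Ighg2b was at 143 in normal and 40 in fibrosis, a ratio of 0.28 (0.266-0.294), since the fibrosis cell with 1676 Ighg2b UMIs lay in another class. Ighe, the IgE gene, had 21 UMIs in a single normal plasma-cell-like cell and none in fibrosis ones.

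The Igha ratio of fibrosis over normal in plasma-cell-like cells was 2.07 (2.05-2.1) per 10000 UMIs but 0.691 per cell. It was 0.956 at the coarser clustering resolution of 0.4. There the fibrosis class was a sub-cluster of 291 cells with a median of 1386 UMIs, split from a B-cell-like cluster. In plasma-marker cells the Igha ratio was 2.15 (2.13-2.17) per 10000 UMIs and 2.99 per cell, from 1212 to 3624 Igha UMIs. The direction of the Igha difference thus depended on the scaling and on which cells were counted.

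Against B-cell-like cells of the same library, 8 of 10 normal members were at a ratio of 2 or more and 1, Ighd, at 1/2 or less. Of all 1972 genes, 8.22% were past 2 and 58% past 1/2. In fibrosis 3 of 7 members were past 2 and 2 past 1/2, where 2.93% and 49.3% of 2222 genes were. Ighg1, Ighg2c and Ighg3 in normal and Ighg2c in fibrosis reached the level for counting only in plasma-cell-like cells, where they were high, so nothing is read from these counts. Igha had a ratio of 221 (205-238) in normal and 311 (287-337) in fibrosis, Igkc 34 (33.4-34.6) and 29.6 (28.8-30.4), and Ighd 0.00971 (0.00542-0.0161) and 0.0881 (0.0556-0.133). Ighm was at 1.33 (1.29-1.37) in normal, with 95.2% of its UMIs in 3 cells, and at 0.134 (0.111-0.159) in fibrosis. The fibrosis values of Ighm and Ighd come largely from the 42 cells with few member UMIs. In fibrosis plasma-marker cells, against B-cell-like cells outside them, the ratio was 0.031 (0.0233-0.0406) for Ighm and 0.00208 (5.25e-05-0.0116) for Ighd, the last from 1 UMI. Of 18 genes of the plasma cell programme and antibody secretion in normal, 16 were past 2, Jchain at 259 (228-296) and Mzb1 at 14.5 (13-16.2) among them, and 14 of 16 were in fibrosis, Jchain at 354 (293-432). Several of these genes named the class, and several, Tnfrsf17, Prdm1 and Derl3 among them, reached the level for counting only in plasma-cell-like cells, so nothing is read from these counts either. Of 12 partner and signalling genes of the B cell receptor, 9 were past 1/2 in normal and 10 of 11 in fibrosis, with Cd22, an inhibitory co-receptor, at 0.0109 in normal.

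Each cell with 500 or more member UMIs was led by 1 heavy chain, which held a median of 99.8% of heavy chain UMIs in the normal and 99.9% in the fibrosis IgA cells. Igha led 85 of 119 normal cells, 71.4% (62.4-79.3), and 18 of 20 fibrosis cells, 90% (68.3-98.8). These exact binomial intervals cover the counting of cells only, and with 1 mouse per condition the IgA shares could not be compared by a test. The remaining normal cells were led by Ighg2b (12), Ighg1 (8), Ighg2c (8), Ighm (5) and Ighg3 (1), and the remaining fibrosis cells by Ighg2b (2). No cell was led by Ighd or Ighe, and 0 of 20 fibrosis cells led by Ighm allows up to 15%. In plasma-cell-like cells alone, 58 of 87 called normal cells were Igha, 66.7% (55.7-76.4), and 10 of 11 called fibrosis cells, 90.9% (58.7-99.8). The fibrosis share was 55% at resolution 0.4, where the class was a sub-cluster of 291 shallow cells, as given above. Another rule took cells of any class with 3 plasma cell markers and 10 UMIs of them. By it the shares were 45.7% in normal and 43.8% in fibrosis, in the opposite order. That rule was not limited to plasma-cell-like cells. In fibrosis, cells with fewer than 500 member UMIs had medians of 19 plasma cell marker UMIs in the stellate-cell-like and 11 in the monocyte/macrophage-like class.

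**Figure D2:**
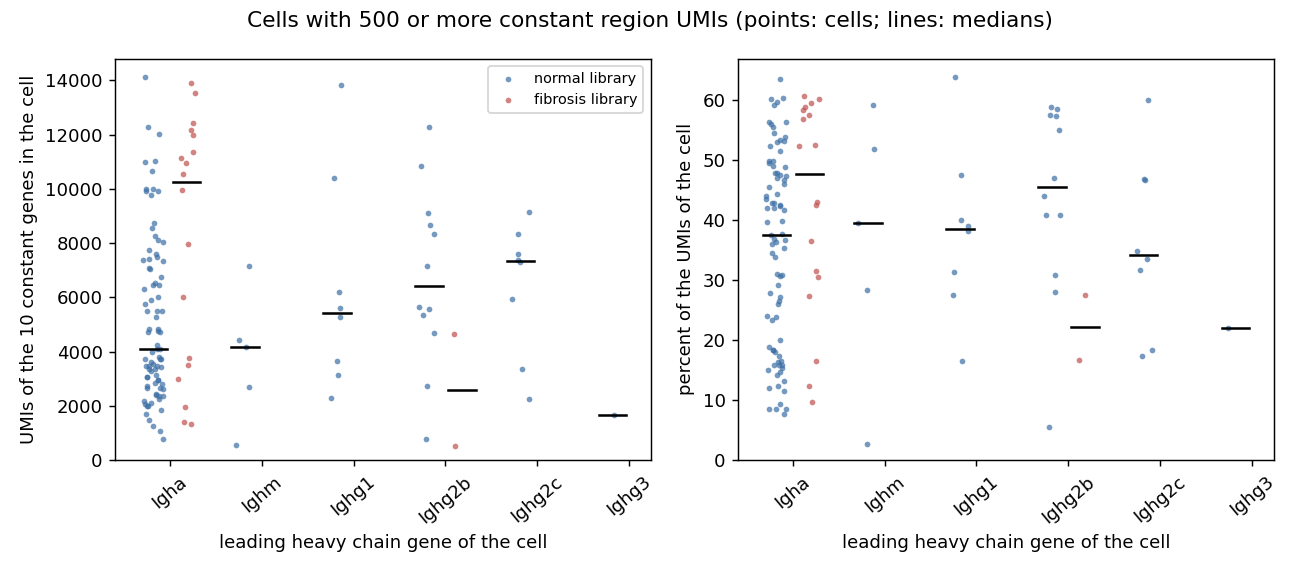
Member UMIs (left) and their percent of the cell's UMIs (right) in each cell with 500 or more member UMIs, by the leading heavy chain gene; points are cells of the normal (119) and fibrosis (20) library and lines are medians. IgA cells make up 85 normal and 18 fibrosis cells, and among these kept cells those led by Ighm, Ighg1, Ighg2c or Ighg3 are from the normal library.

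The cells had been chosen for many member UMIs, so the UMIs of the leading chain are a description. The median was 1527 Igha UMIs per IgA cell in normal, from 208 to 4784, and 4220 in fibrosis, from 908 to 6780. The ranges overlap. Normal cells of the other classes had medians of 2256 Ighg2b, 1796 Ighg1, 2276 Ighg2c and 1968 Ighm UMIs. The 5 fibrosis cells with the most member UMIs held 13899, 13541, 12427, 12172 and 11989, all IgA cells with kappa.

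By the rule of 90% of light chain UMIs, kappa led 112 of 119 normal cells and 19 of 20 fibrosis cells, lambda led 3 and 1, and 4 normal cells were mixed, 1 of them with 1975 Igkc and 1165 Iglc1 UMIs. The lambda cells used Iglc1 in 2 normal cells and 1 fibrosis cell, the last with 2234 Iglc1, 6 Igkc and 3705 Igha UMIs. The normal cell led by Ighg3 was the remaining one, with 957 Ighg3, 703 Iglc2, 3 Iglc3 and 3 Igkc UMIs. In that cell Iglc2 was counted almost without Iglc3. UMIs of the other kind were common. Of the cells with 500 or more member UMIs and at least 10 Igkc UMIs, 89.7% in normal and 84.2% in fibrosis also had an Iglc2 UMI, and 89.7% and 94.7% an Iglc3 UMI. The median lambda share was 1.01% in normal and 0.477% in fibrosis cells with 500 or more member UMIs.

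Jchain accompanied every heavy chain class. Among normal plasma-marker cells with 500 or more member UMIs, it was at 341 (338-344) per 10000 in 83 IgA cells, 185 (175-196) in 5 IgM cells and 249 (245-253) in 29 IgG cells, with medians of 419, 160 and 420 UMIs per cell. In the 5 IgM cells Jchain ranged from 1 to 659 UMIs. In fibrosis it was at 394 (388-401) in 17 IgA cells. By median UMIs per cell Jchain was thus nearly equal in IgG and IgA cells of the normal library, and by UMIs per 10000 it was lower in IgG cells. The J chain is not part of secreted IgG. Other genes also differed between the classes beyond counting error. Ccr10, a receptor for homing to mucosal tissue, was at 1.74 (1.52-1.98) in normal IgA and 0.373 (0.221-0.59) in IgG cells, Tnfrsf17, the receptor for a plasma cell survival factor, at 3.04 (2.75-3.36) and 0.767 (0.54-1.06), and Txndc5, a protein disulfide isomerase, at 21 (20.2-21.8) and 9.54 (8.68-10.4). Mzb1 went the other way, at 25.2 (24.3-26.1) and 41.7 (39.9-43.6). Of the 18 genes of the plasma cell programme and antibody secretion, 6 were higher in normal IgA cells with intervals that do not overlap (Jchain, Irf4, Pou2af1, Tnfrsf17, Txndc5 and Ell2), 7 were higher in IgG cells (Mzb1, Sec11c, Fkbp11, Hsp90b1, Hspa5, Pdia4 and Ssr4), and the intervals of 5 overlapped. Mzb1, Derl3 and Tnfrsf17 had been used to choose these cells, and the intervals cover the counting of pooled UMIs only. By median UMIs per cell, Ell2 (5 and 5) and Hspa5 (40 and 40) were equal in IgA and IgG cells. No share over all genes is given beside the counts of 6, 7 and 5 genes, so nothing is read from them. All these cells came from 1 mouse, and no test over animals was possible.

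Not every cell with 500 or more member UMIs lay in a plasma-cell-like cluster. In normal 33 and in fibrosis 10 of them did not. Of the 33, 18 were in an unnamed cluster led by division genes, 7 were NK/T-cell-like, 3 stellate-cell-like, 2 monocyte/macrophage-like and 1 each endothelial-, mesothelial- and plasmacytoid-dendritic-cell-like. Of the fibrosis 10, 4 were NK/T-cell-like and 2 monocyte/macrophage-like, and the conventional-dendritic-cell-like, erythroid-cell-like and stellate-cell-like classes and a B-named sub-cluster of the plasma cell cluster held 1 each. Cells of the NK/T-cell-like class with 500 or more had a median of 106 UMIs of plasma cell markers in normal and 158 in fibrosis, against 2 in the rest of the class in both. Their NK/T cell markers were at medians of 33 and 59.5 UMIs, against 47 and 24, at median depths of 12960 and 24235 UMIs, against 3637 and 2594. The stellate-cell-like ones held both sets, 239 stellate and 135 plasma cell marker UMIs in normal at the median. Scrublet doublet scores were 0.329 in the mesothelial-like cell and 0.075, 0.143 and 0.24 in the 3 stellate-cell-like cells of normal, against class medians of 0.0677 and 0.0594. In the NK/T-cell-like ones they were 0.0594 to 0.13 in normal and 0.102 to 0.107 in fibrosis, against class medians of 0.0233 and 0.0395, and the median score of normal plasma-cell-like cells was 0.0677.

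Cells with 500 or more member UMIs and high division genes had a lower share of the members. With 30 or more UMIs of Mki67, Top2a, Stmn1 and Birc5 as the limit, which was set after the values were seen, 19 of 119 normal cells passed, 16% (9.9-23.8), and 1 of 20 fibrosis cells, 5% (0.127-24.9). Of the 19, 14 were IgA, 4 IgG and 1 IgM, and 18 lay in the unnamed cluster, whose other cells had a median of 54.5 UMIs of these division genes. Members made 15.3% of the UMIs of the median cell of the 19, from 2.78% to 40.8%, and 42.3% of the median other cell, from 8.52% to 63.9%, in normal. The ranges overlap. Medians of member UMIs were 3153 and 5320, and of all UMIs 21236 and 13634. Doublet scores of the 18 cells in the unnamed cluster were 0.0557 to 0.137, against a cluster median of 0.0899.

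Variable segments were counted at low levels in these cells, and the cause was not tested. The normal library listed 76 Ighv segments and the fibrosis library 23. In normal plasma-marker cells 61 Ighv segments had a UMI, and the most counted was Ighv2-5 with 199 UMIs, 197 of them in 1 IgA cell with 14126 member UMIs. The most counted Igkv segment was Igkv5-43 with 519 UMIs, and Iglv1 led the lambda segments with 577. By the most counted segment per cell, Ighv1-81 was the most common, in 4 of 49 cells that could be called, with 35 segments in all. Igkv1-117 was the most common in 9 of 73 cells, with 32 segments. In fibrosis Ighv1-81 was the most counted, with 69 UMIs, 56 of them in 1 cell. No single Ighv or Igkv segment was the most counted in most of the called cells in either library. Iglv1 UMIs were also found in cells led by kappa, such as a normal cell with 9299 Igkc and 44 Iglv1 UMIs.

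**Figure D3:**
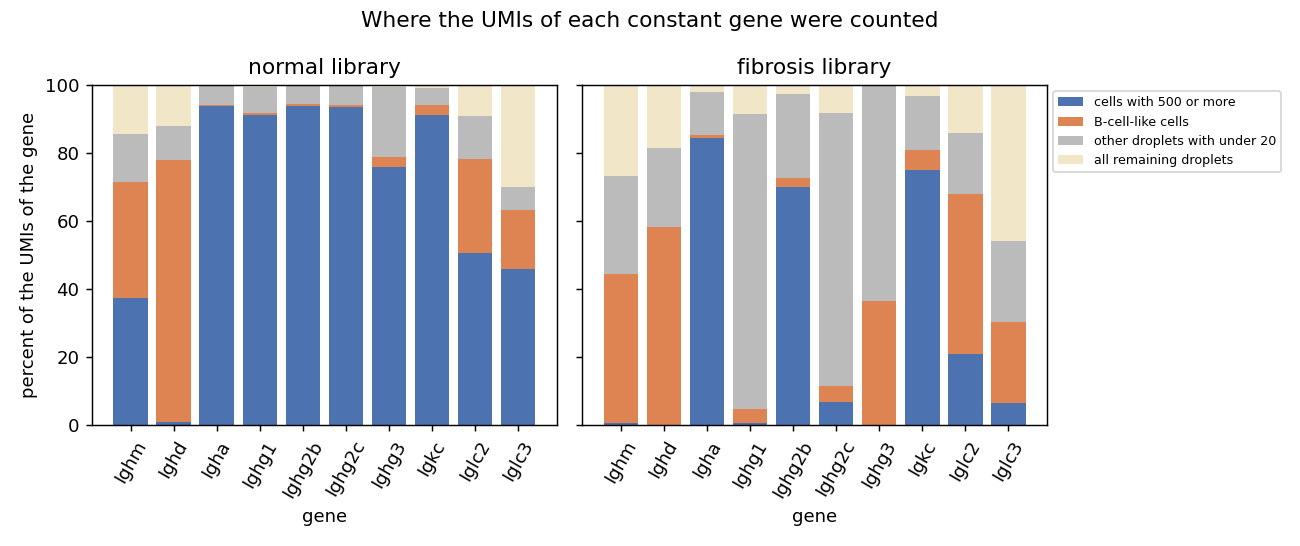
Share of each gene's UMIs (percent, stacked to 100) counted in cells with 500 or more member UMIs, in B-cell-like cells, in other cells with fewer than 20 member UMIs, and in all remaining droplets, for each library. In normal the IgG genes lie in the first category (75.8% to 93.8%), whereas in fibrosis Ighg1 and Ighg2c lie mostly in the third (86.8% and 80.3%).

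Plasmacytoid-dendritic-cell-like (pDC-like) cells, 197 in normal and 162 in fibrosis, held Ighm and Iglc3 but hardly any Ighd. pDCs, the main producers of type I interferon, were identified by Siglech, Ccr9, Klk1, Cox6a2 and Cd209d, none of them an immunoglobulin gene. Ighm was at 13.9 (13.4-14.5) in normal and 11.3 (10.7-11.9) in fibrosis, with medians of 11 and 9 UMIs per cell, present in 100% and 95.1% of cells (76.1% and 62.3% after thinning, against 10.2% and 8.24% in other cells with fewer than 20). Ighd was at 0.247 (0.175-0.337) and 0.353 (0.259-0.471). Ighd per Ighm was thus 0.0177 in normal and 0.0312 in fibrosis, against 0.261 and 0.277 in B-cell-like cells.

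**Figure D4:**
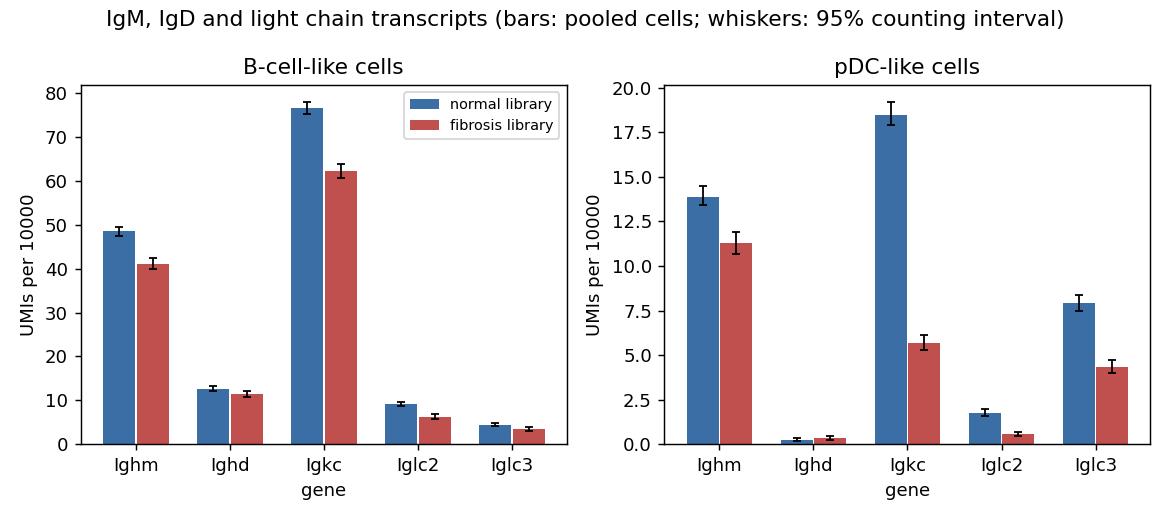
Ighm, Ighd, Igkc, Iglc2 and Iglc3 in B-cell-like cells (left) and pDC-like cells (right), in UMIs per 10000 UMIs of the pooled cells, for the normal and the fibrosis library; whiskers are 95% counting intervals. Iglc3 exceeds Iglc2 in pDC-like cells and lies under it in B-cell-like cells in both libraries.

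The order of Iglc2 and Iglc3 was opposite in pDC-like and B-cell-like cells. In pDC-like cells Iglc3 was at 7.92 (7.49-8.37) in normal and 4.32 (3.97-4.7) in fibrosis, and Iglc2 at 1.77 (1.57-1.99) and 0.561 (0.439-0.705). Iglc3 per Iglc2 was 4.47 (3.92-5.11) in normal and 7.71 (6.04-9.98) in fibrosis, against 0.494 (0.452-0.54) and 0.549 (0.479-0.628) in B-cell-like cells. Igkc in pDC-like cells was at 18.5 (17.9-19.2) in normal, of which 1 cell led by Igha held 1608 of 2927 UMIs, and at 5.68 (5.28-6.11) in fibrosis. Without the 3 cells richest in Igkc it was at 8.08 and 5.29, and free RNA in other cells was at 6.55 and 3.54. Of all Iglc3 UMIs of the libraries, pDC-like cells with fewer than 500 member UMIs held 28.1% in normal and 39.8% in fibrosis. Fcrla, an Fc receptor-like protein of B cells, was also highest in B-cell-like and pDC-like cells, at 3.4 and 1.64 in normal and 2.84 and 2.14 in fibrosis.

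Member transcripts were found in every other class at a few UMIs per droplet. These other cells, without B-cell-like and plasma-cell-like cells and the B-named sub-clusters, numbered 6757 in normal and 5472 in fibrosis, and 6489 and 5274 of them had fewer than 20 member UMIs, with a median of 6 in both. Over 16 normal classes of at least 40 cells, B-cell-like, plasma-cell-like and pDC-like left out, the mean was 4.5 to 9.97 member UMIs per droplet, a range of 2.22 times, whereas median depth ranged over 11.6 times. Over 13 fibrosis classes it was 4.31 to 9.93, a range of 2.3 times, and depth ranged over 18.8 times. Per 10000 UMIs the members therefore fell with depth, from 37 to 5.65 in normal and from 23.6 to 4 in fibrosis, with Pearson r of -0.936 over 16 and -0.948 over 13 classes on log2 scales. Per droplet they increased with depth, with r of 0.679 and 0.953. The classes share a library, depth enters the per 10000 value, and the limit of 20 member UMIs bounds the range per droplet.

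**Figure D5:**
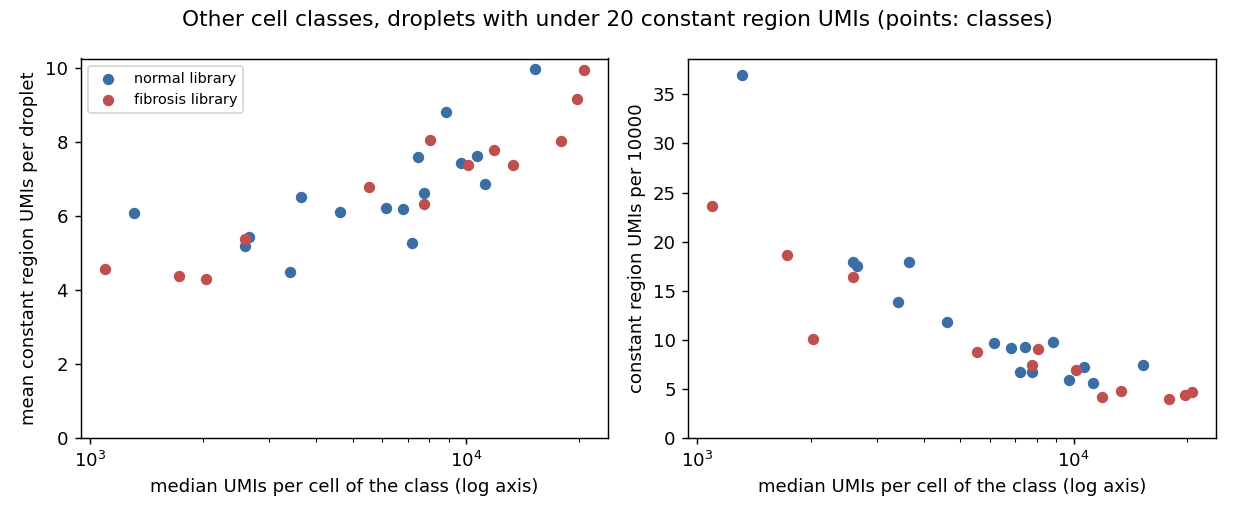
Member UMIs per droplet (left) and per 10000 UMIs (right) against the median UMIs per cell of the class (log axis), for droplets with fewer than 20 member UMIs in the other classes of the normal (16 points) and the fibrosis (13 points) library. The left axis spans 4.31 to 9.97, and the right falls from 37 to 4 as depth increases.

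The make-up of this free RNA is given beside that of the B lineage. In normal, heavy chain UMIs of other cells with fewer than 20, pDC-like cells left out, were 54.4% Igha, 25.3% IgG, 18.6% Ighm and 1.68% Ighd. In fibrosis they were 65.5% Igha, 18.8% IgG, 13.1% Ighm and 2.58% Ighd. Igha per Igkc was 0.393 (0.384-0.403) in normal and 0.693 (0.677-0.71) in fibrosis, and it was 0.362 (0.36-0.365) and 1.06 (1.05-1.08) in plasma-cell-like cells. The lambda share was 5.47% and 4.46%, between plasma-cell-like (2.06%) and B-cell-like cells (18.3%) in normal. In fibrosis B-cell-like cells were at 15.6% and plasma-cell-like cells at 5.44%, a value that rests on 1 cell with 2234 of the 2274 Iglc1 UMIs of the class, and plasma-marker cells were at 3.4%.

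The fibrosis library held Ighg1 and Ighg2c in free RNA, with no kept cell of 500 or more member UMIs led by either. Ighg1 had 1895 UMIs there, 86.8% of them in other cells with fewer than 20 member UMIs and 10 UMIs in the 20 cells with 500 or more. In normal 91.2% of 18567 Ighg1 UMIs lay in cells with 500 or more. Ighg2c had 1073 UMIs in fibrosis, 80.3% of them in other cells with fewer than 20 and 6.9% in cells with 500 or more, against 93.6% in normal. The free level of Ighg1 was 0.405 (0.384-0.427) per 10000 in normal and 0.363 (0.346-0.381) in fibrosis, a ratio of 0.897 (0.835-0.963), whereas per droplet it was 0.219 and 0.312, a ratio of 1.42. Ighg3 differed from both, with 263 free UMIs in normal and 7 in fibrosis, a ratio of 0.0206 (0.00821-0.0431). A cell led by Ighg2c was among the fibrosis cells removed for mitochondrial share, as given above, and none led by Ighg1.

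Between the libraries, Igkc in all other cells was at 32.1 in normal and 10.5 in fibrosis, a ratio of 0.327 (0.324-0.33), and at 6.55 (6.47-6.64) and 3.54 (3.49-3.6), a ratio of 0.541 (0.53-0.552), with droplets of 20 or more member UMIs left out. Igha was at 13.4 and 8.12, a ratio of 0.607 (0.599-0.615), and without those droplets at 2.57 (2.52-2.63) and 2.46 (2.41-2.5), a ratio of 0.954 (0.928-0.981). Per droplet, without those of 20 or more, the ratio was 0.859 for Igkc and turned to 1.52 for Igha (from 1.39 to 2.11 UMIs). Of 5 members at 1 UMI per 10000 or more over all other cells, 4 were at a ratio of 1/2 or less (Ighm 0.478, Ighg2b 0.377, Ighg2c 0.13 and Igkc 0.327) and 0 past 2, where 6.18% and 7.47% of 2315 genes were. Ighm, Ighg2b and Ighg2c reached that level only in the normal library, so nothing is read from this count. In these ratios over all other cells, free RNA and the antibody-secreting cells that fell into the other classes cannot be told apart. Without droplets of 20 or more the ratios were 0.601 for Ighm, 0.352 for Ighg2b and 0.66 for Ighg2c, and per droplet 0.956, 0.56 and 1.05. The ratio of Jchain was 0.542 (0.51-0.577) with the droplets of 20 or more left out.

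Receptors that take up or carry immunoglobulins were spread over several classes. Pigr was at 13.7 (13.1-14.4) in hepatocyte-like and 10 (9.69-10.4) in cholangiocyte-like cells of normal, and at 1.86 (1.6-2.15) and 5.39 (5.06-5.74) in fibrosis. Fcgrt, the neonatal Fc receptor that protects IgG from breakdown, was highest in endothelial-cell-like cells, at 6.68 (6.53-6.83) and 6.74 (6.6-6.88), as was Fcgr2b, the inhibitory IgG receptor, at 16.8 (16.6-17) and 14 (13.8-14.2). Fcmr, the IgM receptor, was highest in B-cell-like cells, at 6.1 (5.73-6.49) and 4.47 (4.06-4.91). Hepatocytes had been depleted from the preparation by low-speed centrifugation.

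Genes whose levels over 27 class points of both libraries followed the members most closely are given as a description, with Pearson r of log2(UMIs per 10000 + 0.1) among 5463 genes. Ighd followed Pax5, the B cell identity factor (0.98), Fcer2a (0.976), Cr2 (0.972), Fcmr (0.968) and Chst3 (0.967). Ighm followed Fcrla (0.902), Cd79b (0.87), Gm30211 (0.87), Tnfrsf13b (0.869) and Mzb1 (0.854). Igha followed Derl3 (0.893), Ccr10 (0.88), Zfp280b (0.858), Ctla4 (0.844) and Eaf2 (0.841), and Igkc followed Lax1 (0.893), Mzb1 (0.886), Derl3 (0.862), Ccr10 (0.827) and Tnfrsf17 (0.825). Ighg1 followed Tnfrsf17 (0.833), Eaf2 (0.747), Derl3 (0.732), Mzb1 (0.702) and Ccr10 (0.701). The points share libraries and depth, and several of these genes had named the classes.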

How the data were processed

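NPCs of 1 normal and 1 CCl4-treated mouse were measured by scRNA-seq (Chromium 3′ version 3 chemistry). Per the labels, reads were processed with Cell Ranger 3.0.1 on mm10, and the authors deposited raw UMI counts for each gene in each barcode. Totals were 44062632 UMIs over 8130 barcodes in normal and 53288463 over 6437 in fibrosis, which sets the counting error given by the intervals. According to the methods, Scrublet was used to exclude doublets. Run here on the cells that passed the filters below, it called 1 cell in each library, and no cell was removed as a doublet.

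Barcodes with over 200 genes and less than 10% mitochondrial UMIs entered. With scanpy 1.11.5, counts were scaled to 10000 per cell and log-transformed, and each library was clustered by the Leiden method (resolution 0.8, 20 neighbours, 10 principal components of 2000 variable genes, immunoglobulin genes left out). A cluster took the name with the most markers among its 10 leading genes, with at least 3 markers raised 2 times. The plasma cell cluster was clustered again, and its B-named sub-clusters were left out of the comparisons. UMIs were summed per class. Intervals are exact Poisson for a level, conditional binomial for a ratio and Clopper-Pearson for a share (scipy 1.17.1). A count of 0 allows up to 3 counts. Shares of cells were thinned to 1000 UMIs. Genes needed 1 UMI per 10000 in 1 of the groups compared and were counted at a ratio of 2. The scripts were tested on simulated data. All members are named, list genes by counts and those past a ratio of 2, look-alikes as the 5 highest correlations, and V segments as the most counted. Members and lists were chosen with earlier results of these data known. Sequences and coordinates are from GENCODE vM21 (GRCm38). Alternatives tried concerned cell filters, doublet scores, resolution, immunoglobulin genes in the clustering, the richest cells, scaling, calling rules and thinning.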

Additional observations from a re-analysis of the deposited data

How the results depend on the processing

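No paired analysis was possible because each condition had 1 library, and for the same reason no replicate could be left out. The cause of the changes below was not tested. For Igkc in B-cell-like cells the ratio of fibrosis over normal (0.813) was 0.611 with no mitochondrial limit, 0.67 and 0.709 at resolutions 0.4 and 1.5, 0.302 with immunoglobulin genes in the clustering, 0.663 per cell and 0.722 with the B-named sub-clusters added (an alternative chosen after seeing the data). The Igha ratio in plasma-cell-like cells (2.07) turned to 0.956 at resolution 0.4 and 0.691 per cell; it was 2.76 under a mitochondrial limit of 5%, 2.51 with none, 2.36 at resolution 1.5, 3.04 with immunoglobulin genes in the clustering, 2.19 without the highest 5% of doublet scores, 1.69 without the 3 richest cells, 2.01 per 10000 UMIs of other genes and 2.15 in plasma-marker cells (chosen after seeing the data). The Ighd ratio there (8.14, from 23 and 15 UMIs) turned to 0.594 with immunoglobulin genes in the clustering and 0.125 in plasma-marker cells. For Igkc in other cells the ratio (0.327) was 0.341 at 5% and 0.371 with no mitochondrial limit, 0.292 with immunoglobulin genes in the clustering, 0.343 without high doublet scores, 0.243 without the 3 richest cells, 0.525 per cell and 0.541 without cells of 20 or more member UMIs. The fibrosis Igha share of plasma-cell-like cells (90.9%) was 100% with no mitochondrial limit and with 50 heavy chain UMIs required, and 55% at resolution 0.4. In cells of any class with 3 plasma cell markers and 10 UMIs of them it was 43.8%, and the normal share (66.7%) was 45.7%. The lambda share of B-cell-like cells was 19%, 10% and 15% in normal with no mitochondrial limit, with immunoglobulin genes in the clustering and without Iglc1, and 14.1%, 13.5% and 14.3% in fibrosis at resolution 1.5, without Iglc1 and with the sub-clusters added. Ighd per Ighm in normal was 0.209 with immunoglobulin genes in the clustering. The share of B-cell-like cells with Ighm was 83.9%, 99.4% and 98.8% in normal when thinned to 500 or 2000 UMIs or not thinned, and 80.3%, 99.3% and 97.4% in fibrosis, where it was also 83.9% with no mitochondrial limit, 85.8% at resolution 1.5 and 86.8% with immunoglobulin genes in the clustering. The 271 genes higher in fibrosis B-cell-like cells became 425 with no mitochondrial limit, 412 with immunoglobulin genes in the clustering, 563 at 0.5 UMIs per 10000, 1782 with no minimum, 661 at a ratio of 1.5 and 168 per cell, and the 234 lower became 405 at 0.5 UMIs and 1079 with no minimum. A mitochondrial limit of 5% left no B-cell-like cluster and gave no value for 23 results. Over 27 ratios of members, 243 of 261 alternatives kept the direction and 17 turned. Igkc in B-cell-like and in other cells and Igha in plasma-cell-like cells are not among the 27. For 13 values that answer a comparison, these among them, 50 of 121 alternatives moved and 2 reversed. For 44 other values 169 of 420 moved. A value moved when it left the interval of the main value, or for counts of genes differed by over 1.5 times. Depth limits the IgG genes in B-cell-like cells, and 1 library per condition limits all differences.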
